A study of Mus musculus with 238 samples.

Results

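The 6 genes studied belong to the MHC class I pathway and were followed through brain and liver of aged mice. They are the heavy chain genes H2-K1 and H2-D1, the light chain gene B2m, and the peptide loading genes Tap1, Tap2 and Tapbp. They were chosen by name as genes of this pathway and are 6 of the 21076 genes in the count table. All 6 were measured in all 238 RNA-seq libraries, which came from C57BL/6JN mice aged 19 months. Of these libraries, 229 were from 15 brain regions and 9 were from liver.

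The diet experiment used females. Its 5 mice under dietary restriction, labelled aDR in brain and DR in liver, were compared with 4 AL mice, which fed freely. The plasma experiment used males. Its 3 mice given YMP, plasma from young mice, through retro-orbital injection were compared with 4 mice given PBS, the buffer control, by the same route. Each mouse gave at most 1 library for a region, so the mice were the replicates. A region held 4 or 5 aDR and 3 or 4 AL libraries, or 2 or 3 YMP and 3 or 4 PBS libraries. How long the mice were restricted or injected is not given in the sources used here. Experiment and sex cannot be told apart, so levels were never tested between the experiments.

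MHC class I molecules show peptides from inside the cell to CD8 T cells and carry a heavy chain that spans the membrane and a light chain, beta-2-microglobulin, encoded by B2m. Peptides cut by the proteasome enter the endoplasmic reticulum through a transporter built from the products of Tap1 and Tap2. Tapasin, the product of Tapbp, holds the empty class I molecule at that transporter while a peptide is loaded. Interferons raise the transcription of all these genes. In brain, class I genes are transcribed in microglia, endothelium and other cells, and their products have also been linked to synapse pruning.

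B2m lies on chromosome 2, at chr2:122147686-122153083 on the plus strand of GRCm38. The other 5 genes lie on chromosome 17, within the MHC. Tapbp spans chr17:33915899-33929292 on the plus strand, H2-K1 chr17:33996017-34000347 on the minus strand, Tap1 chr17:34187553-34197225 on the plus strand, Tap2 chr17:34203527-34216321 on the plus strand and H2-D1 chr17:35262730-35267499 on the plus strand. Class I promoters carry a compact upstream block that binds NF-kappaB, interferon regulatory factors and the proteins that recruit NLRC5, so the sequence ahead of the RefSeq start is shown for the pair of chains that form the complex, H2-K1 and B2m. The sequences are RefSeq promoters of GRCm38.p6, printed 5′ to 3′ on the strand of the gene. That of H2-K1 ends at the base before the RefSeq start. That of B2m was cut to 179 bases, so that it stops before the annotated exon. As printed, the 2 windows held no exon of the GENCODE annotation. Capitals mark matches to the motifs searched.
H2-K1, chr17:34000348-34000527, minus strand: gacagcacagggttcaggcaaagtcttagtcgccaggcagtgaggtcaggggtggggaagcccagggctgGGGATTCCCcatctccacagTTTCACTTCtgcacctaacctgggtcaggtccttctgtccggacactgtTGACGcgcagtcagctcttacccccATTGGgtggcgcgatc
B2m, chr2:122147507-122147685, plus strand: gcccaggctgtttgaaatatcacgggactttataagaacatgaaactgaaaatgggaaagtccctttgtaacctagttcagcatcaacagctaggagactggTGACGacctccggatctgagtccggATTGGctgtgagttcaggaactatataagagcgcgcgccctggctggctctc

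The stretch from the kappaB core to the interferon-stimulated response element is shown for both heavy chain genes. These were the 2 members with a match to both strings searched for these motifs. The RefSeq start of H2-D1 lies inside the gene span given above, and all 180 bases before it lie in annotated exons, as they do for Tap1 and Tapbp.
H2-D1, chr17:35262924-35262952, plus strand: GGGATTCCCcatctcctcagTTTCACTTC
H2-K1, chr17:34000429-34000457, minus strand: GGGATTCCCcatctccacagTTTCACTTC
The 2 stretches were identical at 28 of 29 bases (96.55%). Over the 180 bases before the RefSeq start, H2-D1 and H2-K1 aligned locally with 107 of 119 columns identical (89.92%). The motifs were searched on both strands of those 180 bases. GAANNGAAA, the string used here for the core of the interferon-stimulated response element, was in H2-D1 and H2-K1 and in 4.41% of 27025 promoters. GGGATTCCC, the string used here for a kappaB core, was in the same 2 members and in 0.189% of promoters. TGACG, a core bound by CREB-like factors, was in B2m, H2-D1, H2-K1 and Tap1 and in 15% of promoters. CCAAT was in B2m, H2-D1, H2-K1 and Tapbp and in 28.2% of promoters. No 2 of these matches overlapped in the windows printed. The promoter table held an entry for 5 of the 6 members, and none for Tap2. Only these strings were searched, so a promoter without a match may hold another form of the same element. The B2m window printed above holds gaaactgaaa and gggaaagtccc, which resemble the first 2 strings but were not matches. A match describes the letters of the window and was not tested as a binding site.

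Sequencing depth per library was 0.606 to 32.4 M counts, with a median of 8.44 M, and 6 libraries lay under 2 M. The lowest count of a member in any library was 5, for Tap1, above the floor of 3, and the median count over libraries was 45.5 for Tap1, 129 for Tap2, 394.5 for H2-K1, 419.5 for Tapbp, 1110.5 for B2m and 1233.5 for H2-D1. All 6 members passed the filter on low counts in all 31 comparisons within a region. The summed level of 4 hepatocyte markers was 123118 to 179528 CPM (counts scaled to a library of 1e6) in liver, so the liver label matched its markers. The summed level of 9 choroid plexus epithelium markers was 660 to 8767 CPM in choroid plexus libraries of AL mice but also reached 11373 CPM in corpus callosum libraries of the diet experiment, and libraries of 1 region could differ widely in these markers. In the pons library of aDR mouse 67, which stood apart, the 10 most abundant genes held 23.4% of the counts, and results that rest on it are given with and without it. In bulk tissue, fewer cells of a type and less RNA per cell cannot be told apart.

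The members' levels differed between brain regions, with H2-D1 highest in cerebellum, H2-K1 in olfactory bulb and B2m in medulla, in both AL and PBS mice. Levels are given as CPM after TMM scaling, which adjusts library totals for RNA composition, as mean ± SD over libraries (n = 4 AL mice except n = 3 in corpus callosum and entorhinal cortex). H2-D1 was highest in cerebellum (363 ± 34.0), followed by medulla (256 ± 25.2), pons (220 ± 14.5), the SVZ or subventricular zone (184 ± 53.8) and hypothalamus (169 ± 27.3). It then ran from corpus callosum (145 ± 3.98), olfactory bulb (140 ± 8.07), caudate putamen (127 ± 30.9), motor cortex (121 ± 20.4) and anterior hippocampus (121 ± 19.8) to thalamus (117 ± 25.0), visual cortex (115 ± 14.4), choroid plexus (113 ± 35.2), posterior hippocampus (96.1 ± 24.8) and entorhinal cortex (76.9 ± 14.2). The highest and lowest regional means of H2-D1 differed 4.71-fold. The step from cerebellum to medulla and the step from medulla to pons were each larger than 1 SD, and the other 12 of the 14 steps between neighbours were not.

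H2-K1, the other heavy chain, had its highest mean in olfactory bulb (83.4 ± 8.22), and medulla (73.8 ± 12.8), cerebellum (71.0 ± 21.4), SVZ (63.4 ± 16.9), pons (63.3 ± 16.0) and hypothalamus (56.8 ± 16.9) came next. Corpus callosum (47.5 ± 2.04), choroid plexus (46.9 ± 11.7), anterior hippocampus (44.8 ± 6.52), caudate putamen (43.7 ± 9.48) and thalamus (43.7 ± 11.5) were in the middle. Motor cortex (39.5 ± 7.66), posterior hippocampus (37.9 ± 10.1), visual cortex (32.1 ± 4.90) and entorhinal cortex (31.2 ± 9.30) were lowest. No step between neighbours was larger than 1 SD, and the ends of the order differed 2.67-fold.

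B2m, the shared light chain, was highest in medulla (214 ± 31.1), olfactory bulb (194 ± 10.6), cerebellum (190 ± 17.3), pons (164 ± 28.2) and SVZ (149.5 ± 42.3). Anterior hippocampus (140 ± 25.5), motor cortex (129 ± 16.5), hypothalamus (122 ± 33.2), corpus callosum (121 ± 11.1), choroid plexus (118 ± 34.2) and visual cortex (116 ± 15.2) followed. Caudate putamen (106 ± 20.6), posterior hippocampus (104 ± 6.89), thalamus (97.3 ± 17.8) and entorhinal cortex (87.6 ± 10.8) were lowest. The range was 2.44-fold, and none of its 14 steps was larger than 1 SD.

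The loading genes varied about as much as B2m. Tap1 ran from SVZ (7.19 ± 1.94), olfactory bulb (7.17 ± 0.887), hypothalamus (6.92 ± 2.36), pons (6.78 ± 2.69) and medulla (6.76 ± 1.52), over choroid plexus (6.54 ± 0.762), entorhinal cortex (6.47 ± 0.795), posterior hippocampus (5.49 ± 1.597), cerebellum (5.16 ± 1.19) and anterior hippocampus (5.07 ± 0.982), to motor cortex (4.51 ± 1.061), corpus callosum (4.31 ± 1.058), caudate putamen (3.87 ± 1.40), thalamus (3.75 ± 1.10) and visual cortex (3.38 ± 0.564), a 2.13-fold range. Entorhinal cortex, the lowest region for both heavy chains and B2m in AL mice (n = 3), was thus in the upper middle for Tap1 there. In PBS mice, posterior hippocampus was lowest for those genes, and entorhinal cortex ranked 9 of 15 for Tap1 (4.59 ± 0.998, n = 4). Tap2 was highest in pons (20.2 ± 1.75), cerebellum (19.8 ± 1.74), olfactory bulb (19.8 ± 2.10), medulla (18.4 ± 2.28) and hypothalamus (17.3 ± 3.84). Its level was 15.5 ± 4.04 in SVZ, 14.01 ± 2.25 in choroid plexus, 13.2 ± 1.79 in visual cortex, 12.7 ± 0.363 in motor cortex, 12.1 ± 1.14 in anterior hippocampus, 11.7 ± 4.18 in corpus callosum and 11.6 ± 0.948 in posterior hippocampus. It was lowest in entorhinal cortex (10.6 ± 2.24), caudate putamen (9.83 ± 1.62) and thalamus (8.53 ± 1.59), a 2.37-fold range. Tapbp was highest in medulla (64.4 ± 7.46), pons (62.2 ± 7.69), hypothalamus (58.2 ± 6.65), SVZ (53.3 ± 5.40) and entorhinal cortex (51.6 ± 9.30). Corpus callosum (48.8 ± 8.66), cerebellum (46.3 ± 2.51), olfactory bulb (44.1 ± 2.61), visual cortex (43.6 ± 3.26) and choroid plexus (42.6 ± 11.7) followed. Motor cortex (38.7 ± 1.87), caudate putamen (38.6 ± 5.75), posterior hippocampus (36.5 ± 3.83), anterior hippocampus (35.8 ± 5.43) and thalamus (31.9 ± 4.40) were lowest, a 2.02-fold range. No step between neighbouring regions of Tap1, Tap2 or Tapbp was larger than 1 SD in AL mice.

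**Figure D1:**
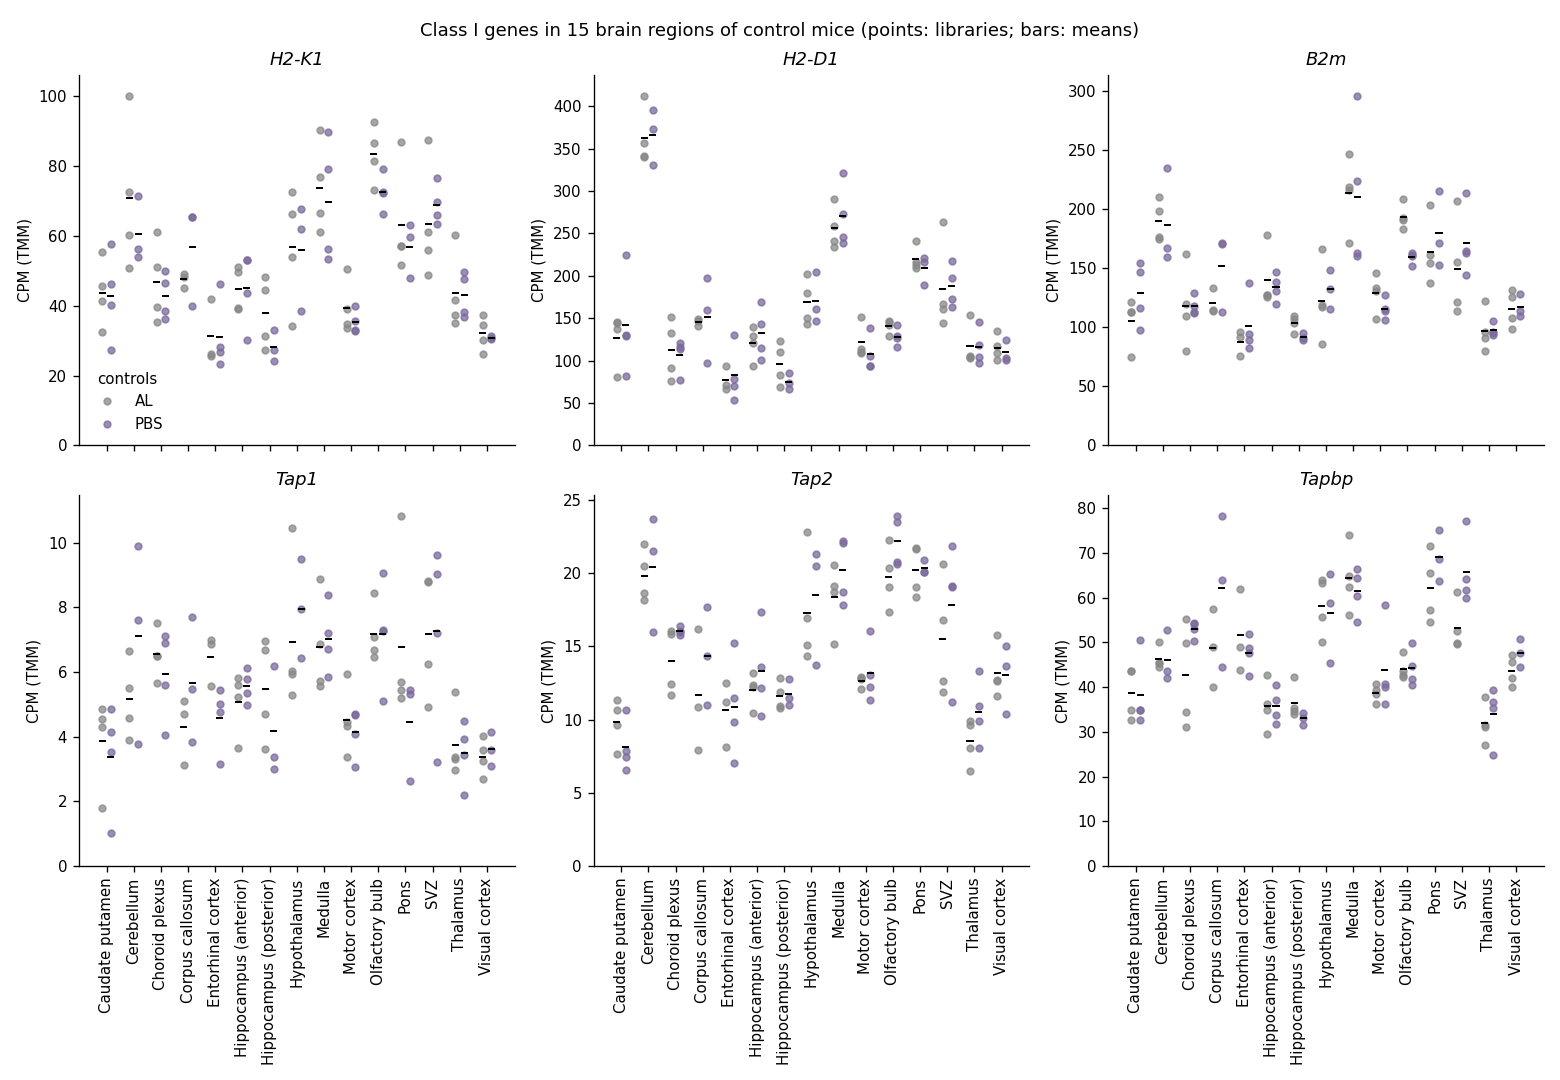
Level of each class I gene (CPM after TMM scaling, linear axis from 0) in the 15 brain regions of AL and PBS mice, with 1 point per library and a bar at each group mean. H2-D1 stands out in cerebellum, with means of 363 CPM in AL and 367 CPM in PBS mice, while H2-K1 is highest in olfactory bulb in both.

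In PBS mice the highest region was the same for H2-D1 (cerebellum, 367 ± 33.0 CPM, n = 3), H2-K1 (olfactory bulb, 72.6 ± 5.26, n = 4) and B2m (medulla, 211 ± 64.0, n = 4). It was pons for Tapbp (69.1 ± 5.77, n = 3), olfactory bulb for Tap2 (22.2 ± 1.74, n = 4) and hypothalamus for Tap1 (7.96 ± 1.52, n = 3). Posterior hippocampus was lowest for H2-D1 (75.2 ± 9.67), H2-K1 (28.2 ± 4.47), B2m (91.8 ± 2.74) and Tapbp (33.0 ± 1.46), and caudate putamen was lowest for Tap1 (3.38 ± 1.67) and Tap2 (8.12 ± 1.79). Over the 15 regions, the AL and PBS means had a Pearson r of 0.98 for H2-D1, 0.94 for H2-K1, 0.94 for Tap2, 0.89 for B2m, 0.89 for Tapbp and 0.73 for Tap1. Between members, the mean log2 CPM of AL and PBS libraries in the 15 regions had an r of 0.87 for B2m with H2-K1, 0.85 for B2m with H2-D1, 0.83 for B2m with Tap2 and, at the lowest, 0.39 for H2-D1 with Tap1. These values are descriptions of regions that share dissection and base composition. Differences between regions passed edgeR's quasi-likelihood F test for all 6 members in AL mice (adjusted p from 8.94e-15 for H2-D1 to 0.000752 for Tap1) and in PBS mice (1.63e-11 for H2-D1 to 0.000841 for Tap1). These fits held no term for the mouse, and with a mouse term all 6 members passed as well. Without PBS mouse 80 the adjusted p of Tap1 in PBS mice was 0.0525, so that its call was lost. A difference between regions is the rule in these tissues, since 98.1% of all genes tested passed in AL and 96.1% in PBS mice.

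Set against each other per kilobase of exon, B2m was the most abundant member in the tissues compared. Length was that of all annotated exons of a gene joined (5.476 kb for Tap1, 3.781 for Tap2, 2.938 for H2-K1 and 2.579 for H2-D1). Single transcripts can be shorter, so the order of members with close values, such as Tap2 and Tap1, may depend on the length used. Other lengths were not tried. In olfactory bulb of AL mice the levels were 225 CPM per kb for B2m, 54.4 for H2-D1, 28.4 for H2-K1, 12.2 for Tapbp, 5.23 for Tap2 and 1.31 for Tap1. In cerebellum they were 221 for B2m, 141 for H2-D1, 24.2 for H2-K1, 12.8 for Tapbp, 5.24 for Tap2 and 0.942 for Tap1. H2-D1 therefore exceeded H2-K1 per length in both brain regions, and the order of the 2 heavy chains was the opposite in liver. There the levels were 5992 CPM per kb for B2m, 1107 for H2-K1, 661 for H2-D1, 65.7 for Tapbp, 15.3 for Tap2 and 11.7 for Tap1.

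Liver carried far more RNA of the class I genes than brain. Liver of AL mice was set against the mean of the same mouse's brain regions, on the log2 CPM scale, with limma (n = 4). H2-K1 was higher in liver by 6.05 (SE 0.124, 66.4-fold, adjusted p 3.42e-07), B2m by 5.32 (SE 0.122, 39.9-fold, adjusted p 5.24e-07) and H2-D1 by 3.56 (SE 0.179, 11.8-fold, adjusted p 1.14e-05). Tap1 was higher by 3.51 (SE 0.193, 11.4-fold), Tapbp by 2.39 (SE 0.193, 5.24-fold) and Tap2 by 2.05 (SE 0.198, 4.15-fold), each with an adjusted p at or below 0.000188. Of all genes tested, 81.7% differed between liver and brain. Scaling by library totals alone kept all 6 members higher but lowered each difference, to 5.11 for H2-K1, 4.38 for B2m, 2.62 for H2-D1, 2.57 for Tap1, 1.45 for Tapbp and 1.12 for Tap2. With that scaling the median difference of all genes went from -0.30 to -1.11.

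The balance between the 2 heavy chains differed between tissues. H2-D1 and H2-K1 counts of the same library were divided, so that depth and scaling drop out. Treated and control mice of an experiment are pooled in the means given. Liver had 0.567 ± 0.103 H2-D1 counts per H2-K1 count (SD, n = 9, range 0.437 to 0.749). Every brain library had more H2-D1 than H2-K1 counts. In olfactory bulb the ratio was 1.77 ± 0.103 in the diet experiment (n = 9) and 1.76 ± 0.0602 in the plasma experiment (n = 7). Within the diet experiment it was 1.58 to 1.76 there in AL and 1.80 to 1.93 in aDR mice. In every other brain region and in liver, the ranges of the ratio in restricted and AL mice overlapped. The separation in olfactory bulb was picked out after the values were seen and was not tested. No share of other genes or ratios that separate in this way was computed. In cerebellum the ratio was 6.54 ± 1.72 (n = 9) and 6.27 ± 0.543 (n = 6). Choroid plexus was the next lowest in brain, with 2.46 ± 0.198 (n = 9) and 2.48 ± 0.397 (n = 7), and the means of the other 12 regions lay between 2.59 and 3.89 in the 2 experiments.

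Within mice, the log2 ratio in liver was 2.47 below the mean over brain regions (mean difference -2.47, SD 0.247, n = 9) and lower in 9 of 9 mice. The 2-sided exact sign-flip permutation test gave p = 0.00391, the smallest that 9 mice allow. The ratio was chosen for this test after its values were seen. Cerebellum exceeded olfactory bulb by 1.83 on the same scale in both experiments, in 9 of 9 and 6 of 6 mice. The lowest brain ratio was 1.54, in the pons library of aDR mouse 67, and the lowest in cerebellum was 3.39, in AL mouse 68. Shared sequence bears on these counts, and was counted in windows of the longest coding transcript of each gene. At 50 bases, 14.3% of the H2-D1 windows and 8.79% of the H2-K1 windows occurred in other genes, and 6.94% of H2-K1 windows also occurred in H2-D1. At 100 bases none of the H2-K1 windows was shared, but 4.64% of the H2-D1 windows still were. B2m shared none at 50 bases.

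**Figure D2:**
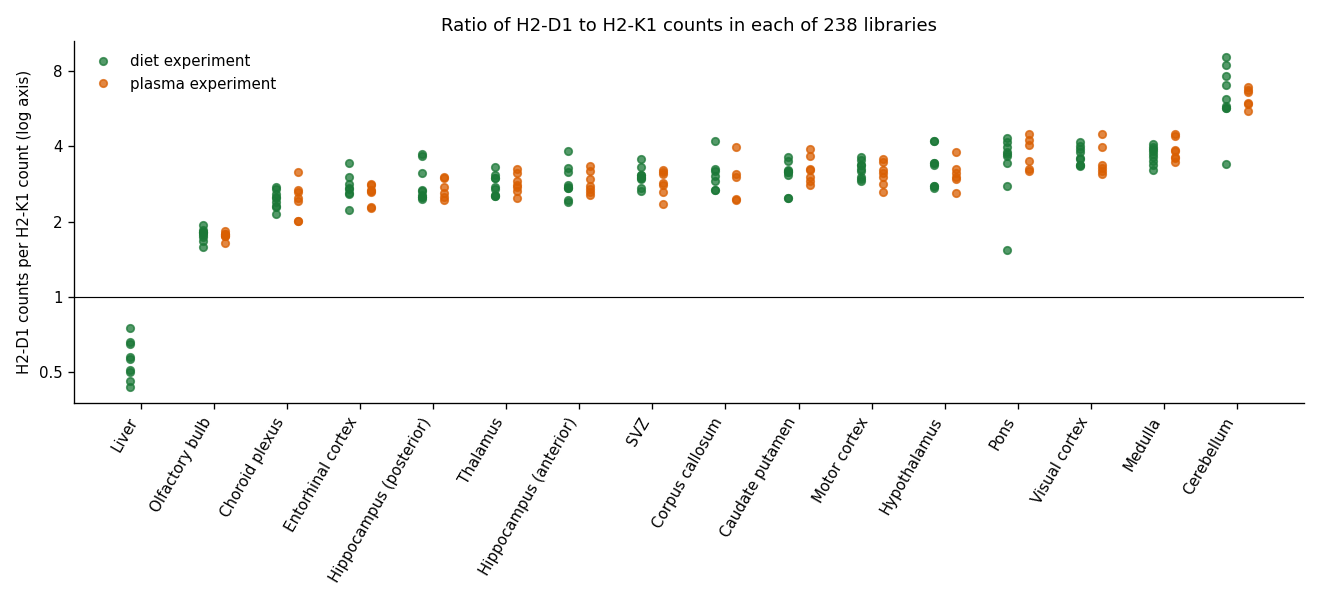
H2-D1 counts per H2-K1 count (log axis) in each of the 238 libraries, by tissue and experiment, with tissues ordered by their mean. Liver lies below 1 in all 9 libraries, olfactory bulb is the lowest brain region at 1.77 and 1.76, and cerebellum is the highest at 6.54 and 6.27.

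Within single regions, dietary restriction left a call on 1 member in 1 region: B2m was lower in olfactory bulb of aDR mice. A call means an adjusted p under 0.05 from edgeR's quasi-likelihood test, with Benjamini-Hochberg adjustment over all genes tested in that region. Across both experiments, 1 of 186 tests of a member in a region was called. At an unadjusted p under 0.05 there were 12 of 186 (6.45%), beside 6.26% for all genes tested in the same comparisons. The share of all genes called under diet was 0.0146% in caudate putamen, 0.0524% in cerebellum, 0.00707% in choroid plexus, 0.0215% in corpus callosum, 0.00714% in medulla, 0.251% in motor cortex, 0.220% in olfactory bulb, 0.0212% in SVZ, 0.202% in visual cortex and 0.220% in liver. It was 0% in entorhinal cortex, both hippocampal samples, hypothalamus, pons and thalamus.

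**Figure D3:**
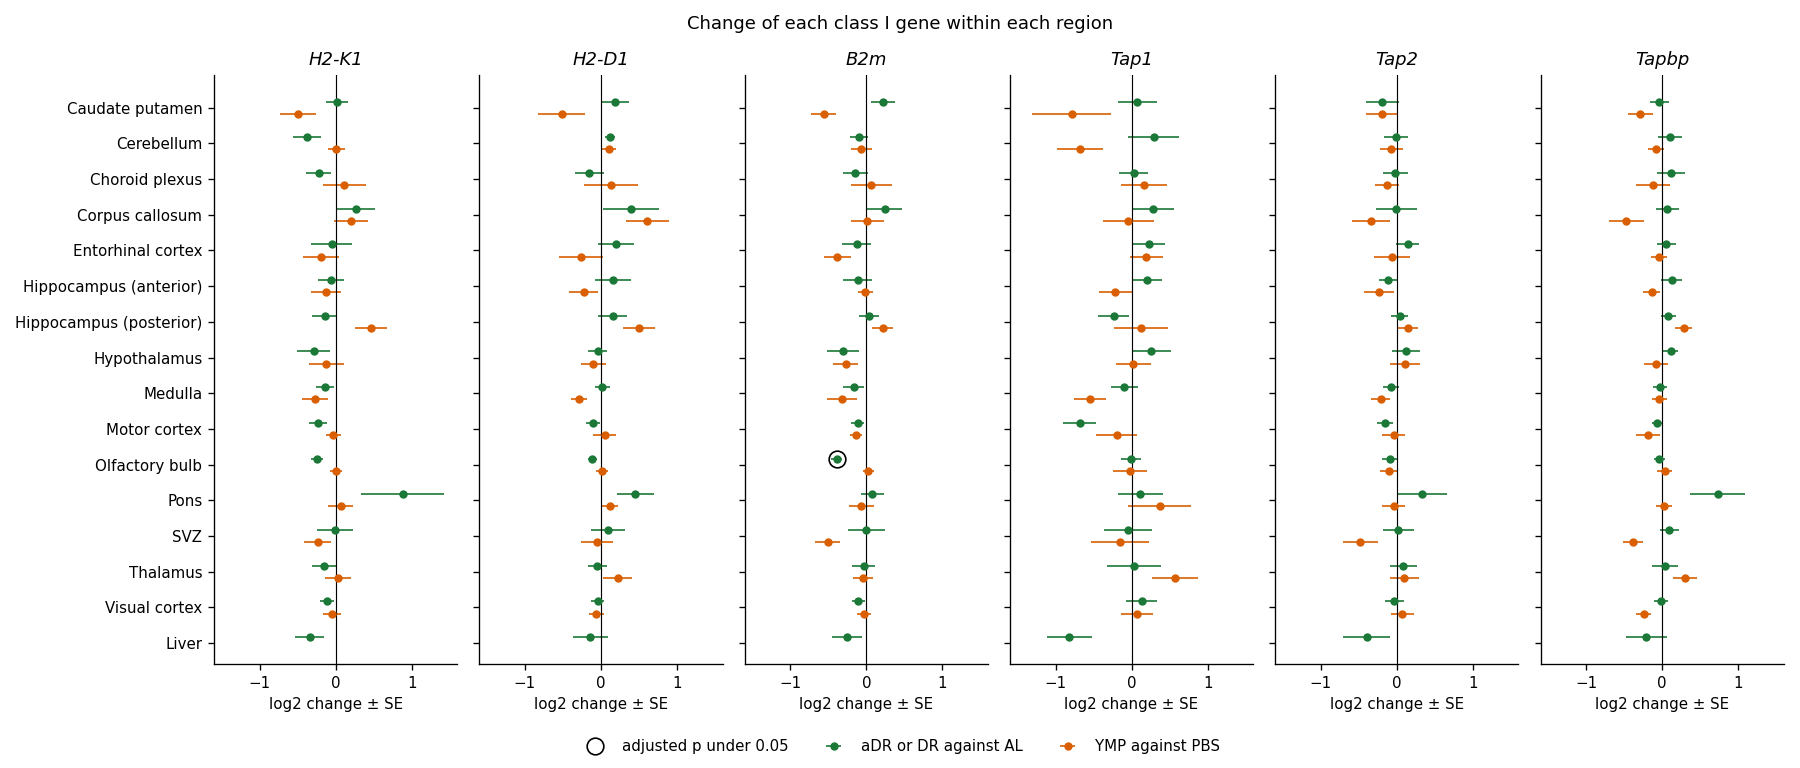
Log2 change of each class I gene, restricted minus freely fed and YMP minus PBS, within each region (points; bars are the SE from edgeR). The single circled point, B2m in olfactory bulb at -0.39, is the only change that passed the test, and the wide bars in pons come with the library of aDR mouse 67.

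In olfactory bulb, B2m was 191, 209, 192 and 184 CPM in AL mice and 144, 135, 142, 149 and 172 CPM in aDR mice. All 5 aDR values lay below all 4 AL values, as for 1.98% of all genes. The means were 194 ± 10.6 (SD, n = 4) and 149 ± 14.02 (n = 5), so B2m fell by 0.39 on the log2 scale (SE 0.0704, adjusted p 0.0492 by edgeR). The adjusted p lay close to the threshold: it was 0.000240 with DESeq2 and 0.0508 with library totals alone, and ran from 0.0174 to 0.243 as single mice were left out. The call was lost without any of the 4 AL mice and without aDR mouse 61, 62 or 64, with the change between -0.46 and -0.35 throughout.

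H2-K1, which binds the light chain, was 73.1, 86.5, 92.5 and 81.5 CPM in AL and 68.3, 62.6, 72.4, 77.1 and 75.5 CPM in aDR olfactory bulbs. The AL mice were mostly higher, but the groups overlapped, and the change of -0.25 (SE 0.0761) was not called (adjusted p 0.214). H2-D1 was 129, 145, 146 and 142 CPM in AL and 124, 121, 132, 143 and 136 CPM in aDR mice, again with overlap. Tap1, Tap2 and Tapbp overlapped widely: Tap1 was 6.47 to 8.45 CPM in AL and 6.15 to 8.07 CPM in aDR mice, Tap2 17.3 to 22.3 and 15.6 to 21.2 CPM, and Tapbp 42.3 to 47.9 and 37.7 to 47.3 CPM. The fitted log2 change was below 0 for all 6 members (median -0.10, beside 0.0042 for all genes), while the mean of Tap1 was 7.25 CPM in aDR and 7.17 CPM in AL mice.

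Other genes of the pathway in olfactory bulb are given by list. Of 10 genes of peptide supply and loading, 9 were lower and 1 was called: Calr, the chaperone calreticulin, fell by 0.26 on the log2 scale (edgeR, adjusted p 0.0492). Of 10 further heavy chain genes tested, 9 were lower and none was called. All 14 interferon-stimulated genes were lower, 11 of them at an unadjusted p under 0.05 where 13.7% of all genes met that level, and none was called (median log2 change -0.62). Their summed level was 122 to 212 CPM in aDR and 194 to 289 CPM in AL mice. Of the microglia markers 8 of 10 were lower (summed 431 to 473 against 464 to 491 CPM), and of the endothelium markers 7 of 8 (210 to 276 against 274 to 287 CPM). All 5 blood markers were higher in aDR mice, at 41.0 to 143 against 19.6 to 59.1 CPM. The part of these lists in the B2m change was not tested.

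In liver, the restricted mice had lower means of all 6 members, and none was called. Tap1 was 57.2, 41.5, 101 and 56.8 CPM in AL and 53.8, 28.3, 22.6, 40.4 and 34.3 CPM in DR livers. AL mouse 68 was the highest and the groups overlapped. The means were 64.0 ± 25.4 (n = 4) and 35.9 ± 12.02 (n = 5), and the log2 change was -0.82 (SE 0.2999, adjusted p 0.402 by edgeR). Without AL mouse 68 it was -0.50 (adjusted p 0.835).

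B2m was 4525, 5119, 6529 and 4440 CPM in AL and 3732, 4873, 5306, 4062 and 3344 CPM in DR livers, so that 3 of the 5 DR values lay below every AL value. H2-K1 was 3106, 2400, 4127 and 3371 CPM in AL and 2989, 2478, 2491, 2608 and 2024 CPM in DR livers. H2-D1 was 1759, 1050, 2075 and 1934 CPM in AL and 1932, 1137, 1266, 1728 and 1516 CPM in DR livers. AL mouse 68 had the highest value of all 3 genes, and in each of them the ranges of the groups overlapped. AL mouse 66 was the lowest AL mouse for Tap2 (33.8 CPM, others 63.4 to 67.4) and Tapbp (144 CPM, others 266 to 276), and DR mice spanned 24.02 to 65.4 CPM of Tap2 and 129 to 296 CPM of Tapbp.

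**Figure D4:**
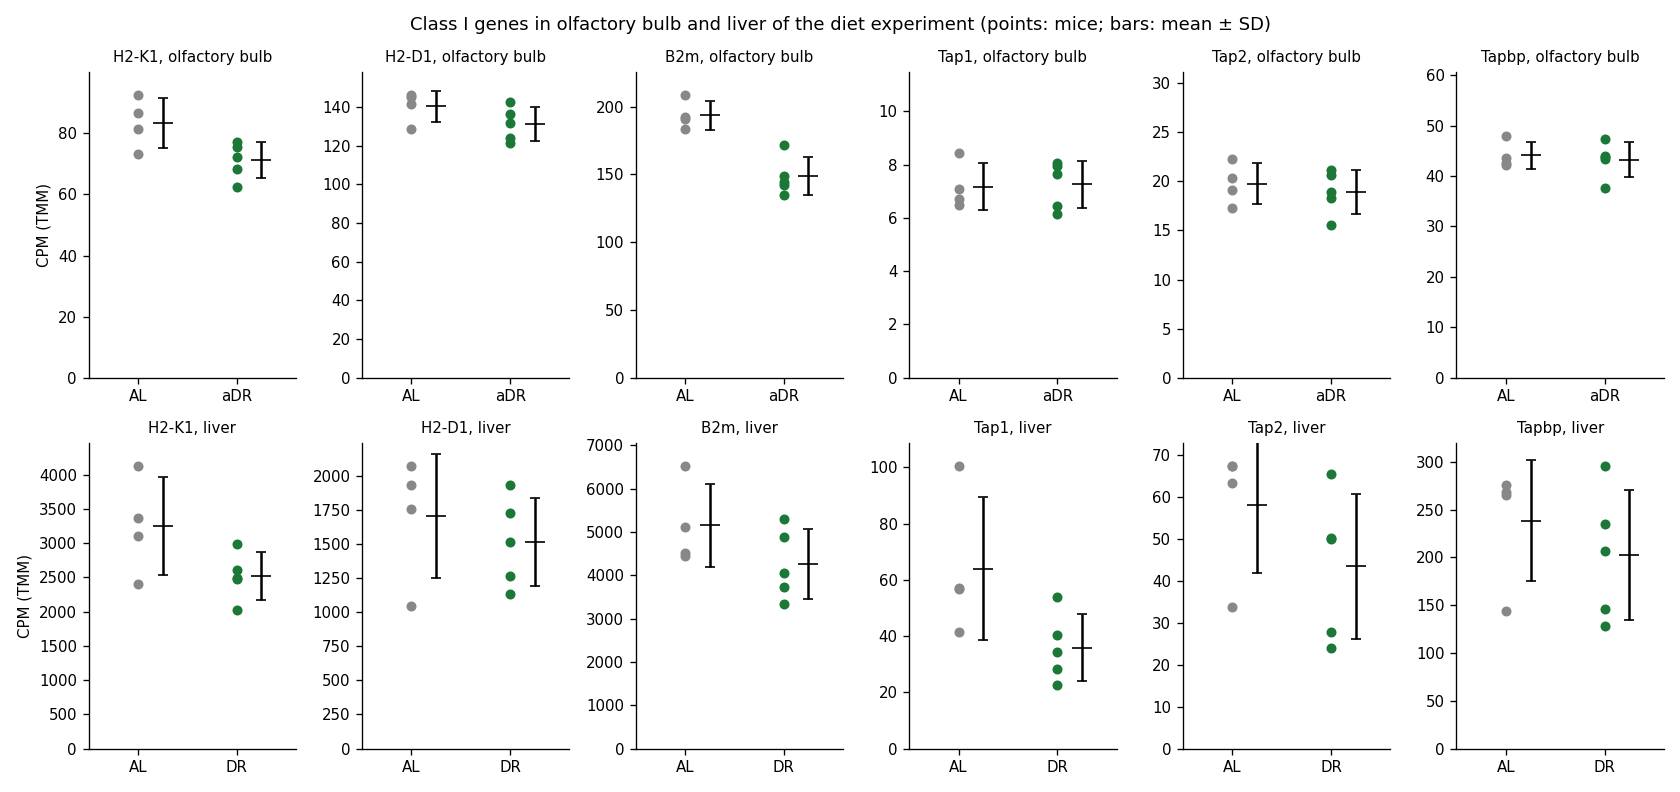
Level of each class I gene (CPM after TMM scaling, linear axes from 0) in olfactory bulb and liver of AL and restricted mice, with 1 point per mouse and the mean ± SD beside them. B2m is separated in olfactory bulb (194 against 149 CPM), and the groups overlap in every liver panel.

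The median log2 change of the members in liver was -0.30, beside 0.018 for all genes. Without AL mouse 68 it was -0.16, with members from -0.50 for Tap1 to -0.01 for H2-D1. Of the other lists, 10 of 10 genes of peptide supply and loading were lower, 2 of them at an unadjusted p under 0.05, a level that 9.09% of all genes met. All 14 interferon-stimulated genes were lower (9 at that level, median -0.66), with a summed level of 1456 to 1827 CPM in DR and 1916 to 3388 CPM in AL livers. All 3 Kupffer cell markers were lower (90.6 to 310 against 195 to 484 CPM), as were all 5 blood markers (110 to 176 against 177 to 388 CPM), and all 4 hepatocyte markers were higher (128412 to 179528 against 123118 to 146520 CPM). None of these genes was called, and their part in the members' values was not tested. The change in liver minus the change in brain of the same mice was tested with limma and called for none of the members, while 0.0186% of all genes were called. It was -0.83 for Tap1 (SE 0.284, adjusted p 0.464), and the other 5 members lay between -0.45 for Tap2 and -0.19 for B2m (adjusted p 0.822 to 0.934).

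In motor cortex, Tap1 was 4.44, 4.32, 5.93 and 3.37 CPM in AL and 1.499, 3.71, 2.90, 2.31 and 3.18 CPM in aDR mice. The aDR values were mostly lower, with overlap, and the change of -0.68 (SE 0.221) was not called (edgeR, adjusted p 0.275). Without AL mouse 68 it was -0.45 (adjusted p 0.777). At an unadjusted p under 0.05 stood 10.5% of all genes in motor cortex. All 6 members had lower means there, as had 11 of 11 interferon-stimulated genes (summed 77.0 to 97.1 against 72.8 to 121 CPM), while all 5 oligodendrocyte markers (3243 to 5996 against 3007 to 4087 CPM) and 4 of 4 blood markers (8.09 to 112 against 5.26 to 10.9 CPM) were higher. None of these was called, and their part was not tested.

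The remaining diet comparisons in brain gave no member at an unadjusted p under 0.05. Over the 15 regions the change of B2m ran from -0.39 in olfactory bulb to 0.24 in corpus callosum, with 10 regions lower. H2-K1 had 12 regions lower and ran from -0.38 in cerebellum to 0.88 in pons. H2-D1 had 6 regions lower (-0.15 in choroid plexus to 0.45 in pons), Tap1 5 (-0.68 in motor cortex to 0.29 in cerebellum), Tap2 9 (-0.19 in caudate putamen to 0.33 in pons) and Tapbp 5 (-0.07 in motor cortex to 0.73 in pons).

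The high ends of H2-K1, H2-D1, Tap2 and Tapbp in pons came with 1 library that stood apart. In the pons of aDR mouse 67, H2-K1 was 312 CPM, while the other aDR mice had 52.7 to 81.1 and AL mice 51.7 to 87.0 CPM. H2-D1 was 481 CPM there, against 200 to 277 in the other aDR and 210 to 241 in AL mice, and Tapbp was 213 CPM, against 66.5 to 79.7 and 54.6 to 71.4. Without this library the pons change was 0.03 for H2-K1, 0.25 for Tapbp, 0.18 for H2-D1 and -0.09 for Tap2, so that pons was still the highest region for Tapbp. The corpus callosum of the same mouse was also the highest of its group, with 219 CPM of B2m (others 113 to 121) and 369 CPM of H2-D1 (others 120 to 139). Without it the corpus callosum changes were -0.04 for B2m and -0.14 for H2-D1.

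Plasma from young mice gave no call on any member in any of the 15 brain regions (edgeR; 8 of the 90 tests had an unadjusted p under 0.05, and none was called by DESeq2 either). The share of all genes called was 0.00738% in cerebellum and 0.184% in corpus callosum, and 0% in the other 13 regions. Those 8 tests lay in 5 regions.

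In caudate putamen, B2m was 116, 154, 147 and 98.0 CPM in PBS and 95.2, 88.8 and 82.9 CPM in YMP mice. All 3 YMP values lay below the PBS values, as for 5.90% of all genes, with means of 89.0 ± 6.13 (n = 3) and 129 ± 26.4 (n = 4). The log2 change of -0.56 (SE 0.167) had an adjusted p of 0.474. All 6 members had lower means in YMP caudate putamen, where 10.2% of all genes had an unadjusted p under 0.05. Alongside, all 5 oligodendrocyte markers were lower (summed 10053 to 15967 against 15573 to 37034 CPM), as were 10 of 10 microglia markers (600 to 636 against 633 to 849 CPM) and 12 of 12 interferon-stimulated genes (74.7 to 97.1 against 72.3 to 245 CPM), and the choroid plexus markers summed to 17.0 to 30.0 CPM in YMP and 11.8 to 3638 CPM in PBS mice. None of these genes was called.

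In the SVZ, which lies along the lateral ventricle, B2m was 144, 163, 165 and 214 CPM in PBS and 124, 146 and 98.5 CPM in YMP mice. Its ranges overlapped by 1 YMP mouse, and the change was -0.51 (SE 0.166, adjusted p 0.254). Tapbp was 77.0, 64.1, 59.95 and 61.8 CPM in PBS and 49.7, 56.1 and 49.5 CPM in YMP mice, a change of -0.39 (SE 0.129, adjusted p 0.261). Its YMP values all lay below its PBS values, as for 5.98% of all genes. The share of all genes at an unadjusted p under 0.05 was 13.5%. All 9 choroid plexus markers were lower in YMP SVZ, with a summed level of 27.6 to 63.5 CPM against 2727 to 18974 CPM, as were all 5 MHC class II markers (6.79 to 12.2 against 33.1 to 62.6 CPM). Of the interferon-stimulated genes, 4 of 14 were lower, and of the genes of peptide supply and loading 10 of 10. The part of choroid plexus tissue in the SVZ values of B2m and Tapbp was not tested.

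In medulla, H2-D1 was 322, 246, 239 and 273 CPM in PBS and 236, 215 and 219 CPM in YMP mice, a change of -0.29 (SE 0.109, adjusted p 0.490). Tap1 was 8.38, 7.21, 5.83 and 6.70 CPM in PBS and 3.55, 5.78 and 5.09 CPM in YMP mice, a change of -0.55 (SE 0.214, adjusted p 0.497). For both genes the YMP values lay below the PBS values, as for 4.26% of all genes, and 9.36% of all genes had an unadjusted p under 0.05. All 14 interferon-stimulated genes were lower too (summed 143 to 165 against 184 to 360 CPM, median log2 change -0.84), among them Ifit1 at -1.15 (adjusted p 0.438). So were 10 of 10 microglia markers (393 to 438 against 458 to 607 CPM) and 5 of 5 oligodendrocyte markers (20169 to 25803 against 25103 to 30257 CPM), and none was called.

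In posterior hippocampus the means of all 6 members were higher in YMP mice, and none was called. H2-D1 was 85.8, 73.0 and 66.9 CPM in PBS and 135, 74.2 and 108 CPM in YMP mice, with overlap, a change of 0.50 (SE 0.207, adjusted p 1). Tapbp was 31.4, 34.3 and 33.2 CPM in PBS and 43.7, 41.6 and 34.9 CPM in YMP mice, a change of 0.28 (SE 0.117, adjusted p 1). All YMP values of Tapbp lay above the PBS values, as for 2.96% of all genes, and 1.98% of all genes had an unadjusted p under 0.05. Higher in YMP mice were 11 of 12 interferon-stimulated genes (summed 90.4 to 139 against 75.4 to 90.3 CPM) and 4 of 5 MHC class II markers (5.47 to 66.9 against 4.84 to 9.24 CPM). In visual cortex, Tapbp was 50.6, 44.4 and 47.7 CPM in PBS and 42.1, 37.4 and 40.4 CPM in YMP mice, a change of -0.25 (SE 0.100, adjusted p 0.999). Its YMP values lay below its PBS values, as for 3.98% of all genes, and 2.78% of all genes had an unadjusted p under 0.05. All 8 endothelium markers were lower in the same comparison (163 to 182 against 207 to 209 CPM).

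Over the 15 regions, the change under YMP ran from -0.56 to 0.21 for B2m (11 regions lower), from -0.52 to 0.61 for H2-D1 (7 lower), from -0.49 to 0.46 for H2-K1 (8 lower), from -0.79 to 0.57 for Tap1 (8 lower), from -0.48 to 0.14 for Tap2 (11 lower) and from -0.47 to 0.30 for Tapbp (11 lower). The lowest Tapbp change and the highest H2-D1 change were both in corpus callosum, where choroid plexus markers summed to 9.98 to 23.9 CPM in 2 YMP and 5128 to 18276 CPM in 3 PBS libraries. Without PBS mouse 84, the corpus callosum change of Tapbp was -0.66 and was called (edgeR, adjusted p 0.0296). That fit called 664 of all genes, where the fit with all libraries called 25 (0.184%).

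To ask whether the members changed in brain as a whole, each mouse was reduced to 1 value per gene over its regions, in log2 CPM, and the values were compared with limma. Under diet none of the 6 members was called, while 1.75% of all genes were, and the groups of mice overlapped for all 6, while 8.30% of all genes did not overlap. The change was -0.09 for B2m (SE 0.0815, adjusted p 0.648), -0.09 for H2-K1 (SE 0.104, adjusted p 0.715), 0.06 for H2-D1 (SE 0.0853, adjusted p 0.795), 0.01 for Tap1 (SE 0.0771, adjusted p 0.978), -0.01 for Tap2 (SE 0.0639, adjusted p 0.954) and 0.08 for Tapbp (SE 0.0437, adjusted p 0.422). The mouse values of B2m were 6.92, 6.97, 7.25 and 7.16 in AL and 6.96, 6.99, 6.81, 6.97 and 7.20 in aDR mice. AL mouse 68 and aDR mouse 67 had the highest B2m values of their groups.

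Under YMP the 6 members all had lower means, and none was called, as was none of all genes (0%). B2m had mouse values of 7.23, 7.08, 7.07 and 7.10 in PBS and 6.89, 7.04 and 6.97 in YMP mice. All 3 YMP values lay below the PBS values, as for 5.34% of all genes, and the groups did not overlap, in either direction, for 10.1% of them. The change of B2m was -0.15 (SE 0.0520, adjusted p 0.510). The difference was -0.08 for Tapbp (SE 0.0472, adjusted p 0.681), -0.07 for Tap2 (SE 0.0737, adjusted p 0.816), -0.06 for H2-K1 (SE 0.0708, adjusted p 0.839), -0.06 for Tap1 (SE 0.120, adjusted p 0.910) and -0.02 for H2-D1 (SE 0.106, adjusted p 0.964). The groups overlapped for these 5 genes.

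**Figure D5:**
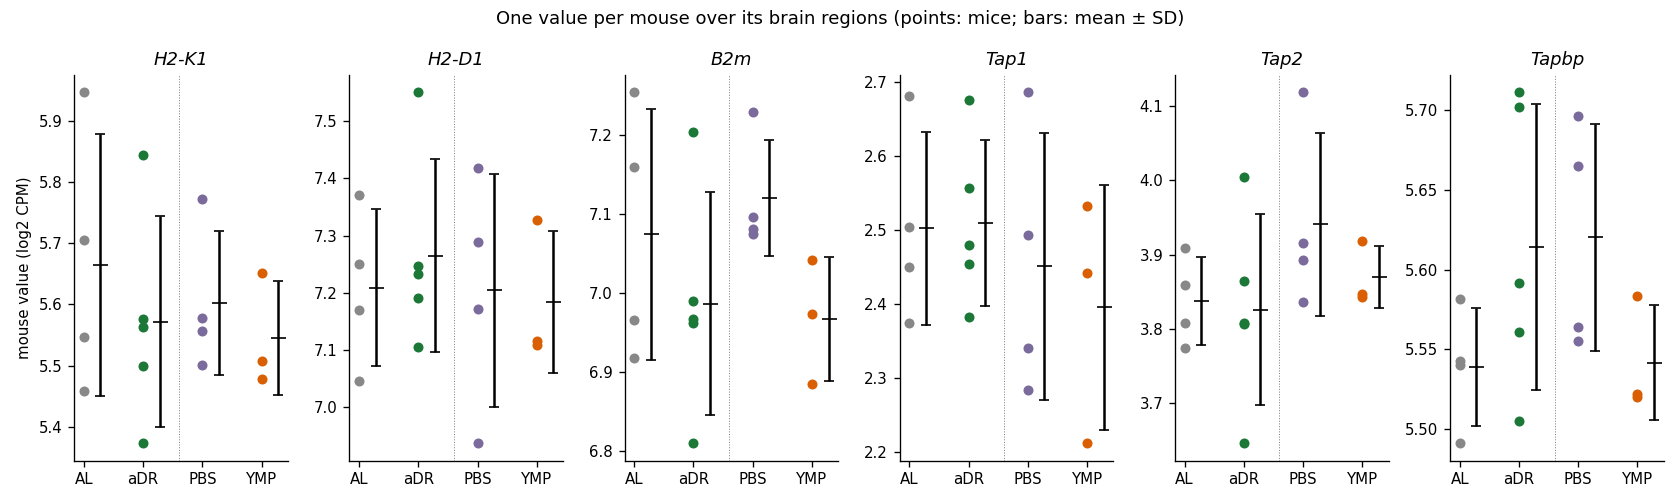
The single value per mouse and gene over its brain regions (log2 CPM; the axes do not start at 0), by treatment, with the mean ± SD beside the points. The 3 YMP mice lie below the 4 PBS mice for B2m (6.97 against 7.12 on average), and all other pairs of groups overlap.

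Whether a treatment acted on a member differently from region to region was tested with edgeR's quasi-likelihood F test of the interaction of region and treatment. This fit held no term for the mouse, so the libraries of 1 mouse counted as separate replicates. With a mouse term no member was called either, while 3 of all genes were called under diet and 147 under plasma. None of the members was called in either experiment, while 0.0128% of all genes were called under diet and 0.824% under plasma. The adjusted p was 1 for all 6 members under diet. Under plasma it was 0.728 for Tapbp, 0.982 for B2m and 1 for the other 4.

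The rest of the class I pathway across brain regions is given by list. Under diet, 1 of 10 genes of peptide supply and loading was called: Calr fell by 0.18 on the log2 scale (limma, adjusted p 0.0375), without overlap between the mice. Of these 10 genes, 4 were lower and 6 higher. Among the higher ones was Psmb10, by 0.11 (limma, adjusted p 0.104), also without overlap. The groups of mice did not overlap for 8.30% of all genes. Of 12 other heavy chain genes tested, 6 were lower and 6 higher, with H2-T23, a nonclassical heavy chain, at -0.04 (adjusted p 0.813). Of 17 regulators of class I transcription, 4 were lower, with Nlrc5, the class I transactivator, at -0.04 (adjusted p 0.932). Of 14 interferon-stimulated genes, 9 were lower. None of these 3 lists held a call, and neither did the 2 of 6 receptors for class I that could be tested. Among cell type markers, 10 of 10 microglia genes were lower and 1 was called (Cx3cr1, the fractalkine receptor, fell by 0.13, adjusted p 0.0458). Of 8 endothelium genes, 6 were lower and 2 higher. The 3 endothelium genes called were lower, among them Cldn5, a tight junction gene, which fell by 0.48 (adjusted p 0.0192). Under plasma no list held a call: lower were 9 of 10 genes of peptide supply and loading, 7 of 11 other heavy chains, 9 of 17 regulators, 7 of 14 interferon-stimulated genes, 5 of 5 MHC class II markers and 9 of 9 choroid plexus markers.

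Single mice stood high in many regions at once. AL mouse 68 had the highest H2-K1 of the diet mice in 8 of its 13 brain regions and lay above the mean of the others in 12 of 13, by a median of 0.39 on the log2 scale. Its B2m was highest in 5 and above the mean of the others in 13 of 13 regions (median 0.24). The aDR mouse 67 had the highest H2-D1 in 6 of 15 regions and lay above the others' mean in 13 of 15 (median 0.20), and its B2m was highest in 4 (median 0.19). An even share would give each of 9 mice the highest value in 11.1% of regions. These 2 mice belong to opposite diet groups.

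After the mean of its region and treatment was taken from each library, the members varied together over the 229 brain libraries. The Pearson r of these residuals was 0.81 for H2-D1 with H2-K1, 0.75 for B2m with H2-D1, 0.73 for B2m with H2-K1 and 0.66 for Tap2 with Tapbp, and lowest, 0.26, for B2m with Tap2. Libraries of 1 mouse and of 1 depth share these residuals, so the values are descriptions. Of 15518 other genes, those most like B2m were Ifitm3 (0.73), C1qa (0.69) and Ctss (0.66). Those most like H2-D1 were Lyz2 (0.71), Anxa5 (0.69) and Ctsh (0.69), and those most like Tap1 were Irf7 (0.62), Gbp2 (0.59) and Oasl2 (0.59). Those most like H2-K1 were Cavin1 (0.68), Ptbp1 (0.68) and Apobec3 (0.68). Tap2 was most like Iqgap1 (0.64), Mr1 (0.63) and Ptbp1 (0.61), and Tapbp most like Pbxip1 (0.72), Ucp2 (0.69) and Fkbp9 (0.68). Without the pons library of aDR mouse 67, those most like H2-K1 were Ifitm3 (0.71), Gbp3 (0.66) and Gbp2 (0.65), those most like Tap2 were Mr1 (0.59), Iqgap1 (0.59) and Plxnb2 (0.57), and those most like Tapbp were Pbxip1 (0.68), Efemp2 (0.65) and Pttg1ip (0.64). B2m, H2-D1 and Tap1 kept their 3 genes. Against the mean of each list, the 6 members had an r of 0.43 to 0.63 with interferon-stimulated genes, 0.34 to 0.61 with MHC class II markers, -0.17 to 0.41 with microglia markers and -0.60 to -0.27 with neuron markers. Without that library these were 0.48 to 0.63, 0.34 to 0.62, -0.06 to 0.47 and -0.50 to -0.27, and the r with microglia markers went from 0.12 to 0.32 for H2-K1 and from 0.06 to 0.24 for Tapbp.

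Some reads could not be given to 1 gene with certainty, since exons of different genes overlap and the libraries carry no strand. How such reads were counted is not given in the sources used here. Exons of Tap1 overlap those of Psmb9 on the opposite strand over 212 bases, those of Tap2 overlap 2 genes on the opposite strand over 698 bases and those of Tapbp overlap Gm19412 on the opposite strand and Zbtb22 on the same strand over 1053 bases. B2m, H2-D1 and H2-K1 overlap no other gene's exons.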

How the data were processed

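The deposited table holds counts of reads per gene for 238 libraries, and per the labels' protocols RNA was isolated from homogenized tissue and made into unstranded Smart-Seq2 and Nextera XT libraries. The submitters' processing notes name Trim Galore 0.3.7, STAR 2.5.3a, DESeq2 and GRCm38, and the counting program and annotation are not given in the sources used here. Counts were tested as deposited in R 4.3.3 with edgeR 4.0.16 (TMM scaling, filterByExpr set to 10 counts per library and 15 in total, quasi-likelihood tests within each region) and limma 3.58.1 (log2 CPM with a prior count of 2, 1 value per mouse and gene from a fit of region and mouse). P-values were adjusted over all genes tested. DESeq2 1.42.0 was an alternative. The scripts were tested on simulated data.

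The members and gene lists were chosen with earlier results of these data known. The 6 members were always named; within a region, fold changes and adjusted p were given where the unadjusted p was under 0.05. Of each list, the first gene and the 2 with the smallest p across brain regions could be named. The genes given as most like a member were the 3 with the highest residual correlation. Gene positions and exon lengths came from GENCODE annotation of GRCm38, promoters from RefSeq. Of 357 library pairs compared within groups, none was a duplicate: the lowest chi-square per degree of freedom was 1.29. The mouse number marks the same animal across regions and pairs no mice across treatments. Deviations correlated by 0.0401 (diet) and 0.0729 (plasma) between regions of 1 mouse, and by -0.00469 and -0.0117 between mice.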

Additional observations from a re-analysis of the deposited data

Results flagged for a closer look

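In groups of 4 to 10 libraries of a region and treatment, or of mice, the highest or lowest value was set against the nearest other value by Dixon's test. Of 252 groups tested, 29 held a value apart, where 12.6 are expected by chance, which marks about 1 group in 20. Among the 29, 10 were highest values of aDR mouse 67 and 7 were highest values of AL mouse 68. Values are CPM, with the range of the other libraries of the group.

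For B2m, aDR mouse 67 stood high in corpus callosum (219, others 113 to 121) and medulla (261, others 166 to 181), AL mouse 68 stood high in anterior hippocampus (178, others 126 to 128), and aDR mouse 64 stood low in SVZ (81.5, others 152 to 171). The value over brain regions of PBS mouse 72 was 7.23 log2 CPM, with the other PBS mice at 7.07 to 7.10. For H2-D1, aDR mouse 67 stood high in corpus callosum (369, others 120 to 139), anterior hippocampus (228, others 96.9 to 131), medulla (321, others 233 to 250) and pons (481, others 200 to 277). AL mouse 68 had high H2-D1 in motor cortex (152, others 109 to 114) and thalamus (154, others 103 to 106). Low H2-D1 values were found in caudate putamen of AL mouse 63 (80.6, others 137 to 145) and choroid plexus of PBS mouse 84 (77.3, others 114 to 121).

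H2-K1 stood high in pons of AL mouse 68 (87.0, others 51.7 to 57.1) and of aDR mouse 67 (312, others 52.7 to 81.1). Tap1 stood high in hypothalamus of AL mouse 63 (10.4, others 5.30 to 6.02) and in pons (10.8, others 5.19 to 5.70) and thalamus (5.37, others 2.96 to 3.36) of AL mouse 68, and low in medulla of aDR mouse 62 (3.39, others 6.05 to 7.06). Tap2 stood high in medulla of aDR mouse 61 (20.4, others 16.3 to 16.8) and pons of aDR mouse 67 (50.3, others 16.8 to 21.9), and low in liver of AL mouse 66 (33.8, others 63.4 to 67.4) and visual cortex of aDR mouse 62 (10.5, others 13.001 to 13.7). Tapbp stood high in caudate putamen of PBS mouse 76 (50.6, others 32.6 to 34.9), cerebellum of AL mouse 68 (50.03, others 44.5 to 45.4), posterior hippocampus of AL mouse 66 (42.2, others 34.0 to 35.2), and medulla (72.4, others 59.2 to 61.5) and pons (213, others 66.5 to 79.7) of aDR mouse 67. It stood low in liver of AL mouse 66 (144, others 266 to 276).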

How the results depend on the processing

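Of 1244 values of the members under alternative settings, 1205 were scored as unchanged, 19 changed sign, 9 lost and 1 gained a call, and 10 counts of members called moved. For a log2 change, unchanged meant the same sign and the same side of the threshold. F statistics have no direction and could change only their side of the threshold. Counts of members called made up 465 of the values. A count that shifted little was scored as unchanged, such as 6 to 5 members called between regions of PBS mice. The count in olfactory bulb under diet was 0 with library totals alone and 0 to 1 as single mice were left out. In corpus callosum under plasma it was 0 to 1. Across brain under plasma it was 1 in a limma fit of single libraries with no replicate block (B2m, adjusted p 0.0368). That fit counted the regions of a mouse as separate replicates and called 2629 of all genes. With the mouse as replicate block none of the 6 members was called in either experiment, while 1475 genes were called under diet and 468 under plasma. The difference of Tap1 between regions of PBS mice was not called without PBS mouse 80 (adjusted p 0.0525). The causes were not tested beyond the samples each setting drops.

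Within single regions, the sign of a change was followed only for members with an unadjusted p under 0.05. Other regional changes of sign are not among the 19. Without aDR mouse 67, for example, Tap2 in pons went from 0.33 to -0.09 and B2m in corpus callosum from 0.24 to -0.04. All 19 changes of sign counted were in the values across brain, with a size of at most 0.048. Under diet, leaving out single mice moved H2-D1 between -0.014 (mouse 67) and 0.11, and gave -0.0023 for it with AL mouse 63 left out. H2-K1 moved between -0.17 and 0.0021 (mouse 68), Tap1 between -0.040 (mouse 63) and 0.068, with -0.012, -0.0057 and -0.035 for mouse 69, 61 and 67 left out, and Tap2 between -0.058 and 0.034 (mouse 64), with 0.010 for mouse 69. Tap1 was -0.0074 with library totals alone, -0.0050 without choroid plexus and corpus callosum and -0.0032 without corpus callosum. Under plasma, H2-D1 was 0.0064 with no replicate block and moved between -0.11 and 0.048 (mouse 72), with 0.0079, 0.025 and 0.014 for mouse 76, 73 and 81, and Tap1 moved between -0.13 and 0.041 (mouse 73), with 0.023 for mouse 72.

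Counts of all genes called moved more. DESeq2 called 753 genes over the 16 diet comparisons where edgeR called 134, and 949 where edgeR called 26 over the 15 plasma comparisons. Over all settings the count ran from 2 to 122 in olfactory bulb (31 reported), 7 to 224 in liver (26), 9 to 128 in motor cortex (33), 16 to 59 in visual cortex (27) and 0 to 168 in cerebellum (7) under diet. It ran from 0 to 664 in corpus callosum (25), 0 to 504 in SVZ (0), 0 to 194 in olfactory bulb (0), 0 to 112 in cerebellum (1) and 0 to 73 in caudate putamen (0) under plasma. In the other regions it stayed between 0 and 37. Across brain it ran from 52 to 2760 under diet (273) and 0 to 2629 under plasma (0), for terms of region by treatment from 0 to 3 (2) and 3 to 161 (130), and for liver effect minus brain effect from 0 to 11 (3). Tap1 had the lowest median count (45.5).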
